A study of Mus musculus with 10 samples.

Results

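The results describe 8 genes whose enzymes and adaptors turn a deaminated cytosine in an antibody gene into a mutation or a rejoined DNA break: Ung, Apex1, Msh6, Exo1, Trp53bp1, Rif1, Lig4 and Xrcc4. They were taken by name from the 46959 genes of a mouse RNA-seq count table, and all 8 were present once and passed the filter on low counts in every comparison. The study measured 10 libraries of total RNA to follow the effect of a histone deacetylase inhibitor, and of a modified immunoglobulin heavy chain locus, on B cell transcription. 6 libraries came from CD43- splenocytes, a fraction enriched in resting B cells, that were cultured for 2 days with 5 µg/ml of lipopolysaccharide (LPS), a bacterial product that makes B cells divide and switch isotype. 4 libraries came from cells labelled as B cells, recovered from femurs and extracted without culture.

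The splenic groups were wild-type BLACK-6 mice with LPS (WT LPS), wild-type mice with LPS and 200 ng/ml of SAHA, a histone deacetylase inhibitor also called vorinostat (WT LPS+SAHA), and KOKI mice with LPS (KOKI LPS), with 2 libraries each. What KOKI stands for is not spelled out in the labels, and the series title names a mini 3'RR, the regulatory region downstream of the heavy chain constant genes. The titles and the design text give the KOKI cultures as LPS alone, whereas their treatment label names LPS and SAHA, so KOKI LPS was set against both wild-type groups. Each femoral library was a pool of 3 mice; the design text counts 3 femoral genotypes with 2 pools apiece, while the labels of the 4 libraries used here give 2, 1 and 1. By their labels, both femoral controls lacked RAG2 and the gamma c cytokine receptor chain, 1 femoral KOKI pool lacked both as well, and the other femoral KOKI pool lacked RAG2 alone. Reads of the Rag2 gene were nonetheless counted in all 4 femoral libraries, at 6.52 and 8.66 CPM in controls and 7.47 and 10.2 CPM in the KOKI pools, so the table does not check that label; which part of the gene was deleted is not in the labels. RAG2 loss blocks the rearrangement of antibody genes, so such mice make no mature B cells, and gamma c loss removes several interleukin signals. Ages of the mice are not in the labels.

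Marker genes bore out the splenic label. Mature B cell markers cannot check the femoral one, since RAG2 loss leaves no mature B cells. Early B cell markers were mixed in femurs: Dntt averaged 41.4 CPM in controls and 59.8 CPM in KOKI pools, Vpreb1 0.322 and 0.478 CPM. All 8 early markers summed to 69.9 to 89.9 CPM in femoral libraries and 107 to 174 CPM in splenic ones. Most of the splenic sum was Ebf1, at group means of 99.8 to 137 CPM against 2.66 and 2.41 CPM in femoral controls and KOKI pools. Dntt was at most 0.0665 CPM in splenic group means. Il7r was at 0.823 to 3.02 CPM in splenic groups against 15.4 and 20.6 CPM. For WT LPS against femoral control, 2 of the 8 log2 differences were positive and 6 negative. The summed level of 8 mature B cell markers was 2442 to 3914 CPM (counts scaled to a common library size) in splenic libraries and 11.8 to 15.1 CPM in femoral ones, where Cr2 was at 0 in all 4 and Ms4a1 reached at most 0.0946 CPM. The summed level of 8 neutrophil markers, among them Elane and S100a8, was 13095 to 20348 CPM in the femoral libraries and 0.719 to 3.60 CPM in the splenic ones. Erythroid markers summed to 8992 to 11498 CPM in femoral libraries and 242 to 652 CPM in splenic ones. For macrophage markers the sums were 3784 to 5335 and 27.4 to 55.7 CPM. By these markers the femoral libraries were not B cells alone. Total counts ran from 18614742 to 29314068 per library. KOKI LPS 2 stood apart from the other 9 libraries by 8499 counts of Xist and 20 of the Y-linked Ddx3y, the reverse of the others, and WT LPS+SAHA 2 by counts in 451 of 1292 olfactory receptor genes, against 15 to 126 elsewhere. Calls that changed without one of these libraries are named beside the result.

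Class switching and somatic mutation start when cytosine is deaminated to uracil in switch regions and variable exons. The uracil glycosylase Ung and the abasic site endonuclease Apex1 cut the strand by base excision, while the mismatch sensor Msh6 recruits the exonuclease Exo1 to open a gap. Paired breaks in switch regions are shielded from resection by Trp53bp1 and its effector Rif1, and the ligase Lig4 with its scaffold Xrcc4 joins them by non-homologous end joining.

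In the coordinates of the deposited table (mm10), the base excision genes are Ung at chr5:114130386-114139323 and Apex1 at chr14:50924968-50927139, both on the plus strand. The mismatch genes Msh6 (chr17:87975050-87990883) and Exo1 (chr1:175880581-175913489) and the end protection gene Rif1 (chr2:52072837-52122383) also lie on the plus strand. Trp53bp1 (chr2:121193281-121271407), Lig4 (chr8:9970020-9977686) and Xrcc4 (chr13:89774027-90089608) lie on the minus strand. Counts were summed over the exons of each gene, from 1422 exonic bases for Apex1 to 14164 for Trp53bp1.

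Of the 8 genes, 6 matched the RefSeq promoter table for GRCm38.p6, and the 250 bases before each start were searched on both strands for letters used by cell cycle regulators. TTTCCCGC or TTTGGCGC (E2F) was in none of the 7 windows of these 6 genes and in 1.3% of all 32851 windows. CCAAT (NF-Y) was in those of Apex1 and Msh6, 45 and 34 bases before the start, and in 33.8% of all windows. TTTGAA or TTCGAA (CHR), elements that do not overlap the others, was in that of Apex1, 194 bases before the start among bases shared with exons of the neighbour Osgep, and in 17.1% of all windows. The upstream bases of Apex1 (chr14:50924894-50924948, plus strand, the stretch free of exons) and of Msh6 (chr17:87974800-87975049, plus strand) are shown because both genes differed between cultures, with the CCAAT element in capitals, which reads ATTGG where it lies on the other strand.
Apex1: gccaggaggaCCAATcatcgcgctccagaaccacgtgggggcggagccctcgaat
Msh6: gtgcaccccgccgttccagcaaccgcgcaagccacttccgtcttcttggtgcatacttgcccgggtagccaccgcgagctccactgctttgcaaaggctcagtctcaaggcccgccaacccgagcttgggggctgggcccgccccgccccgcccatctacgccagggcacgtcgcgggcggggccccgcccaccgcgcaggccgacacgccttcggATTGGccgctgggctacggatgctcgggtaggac
A match describes the letters only, and binding at these elements was not tested.

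Levels between genes were compared as CPM per kilobase of exon. In WT LPS, Apex1 was the most abundant of the 8 at 78.7 ± 3.92 CPM per kb (mean ± SD, n = 2 libraries, as for all such values). Msh6 followed at 29.3 ± 1.51 and Rif1 at 21.7 ± 2.77 CPM per kb, and no 2 of these 3 genes overlapped. Exo1 was at 7.21 ± 0.63 and Ung at 6.34 ± 1.44 CPM per kb, and their libraries overlapped. The end joining genes were low, Xrcc4 at 3.97 ± 1.04 and Lig4 at 3.21 ± 0.497 CPM per kb, beside Trp53bp1 at 3.01 ± 0.0897, and neighbours among these 3 overlapped. Among the WT LPS levels of 20204 genes, Apex1 was at percentile 96.2 and Ung, of the same step, at 68.0, while Lig4 was at 56.6 and Xrcc4 at 60.1.

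The order was not the same in femoral controls. There Msh6 (24.4 ± 6.85), Apex1 (23.7 ± 2.70) and Rif1 (20.9 ± 1.86 CPM per kb) overlapped, Exo1 was at 4.18, and Lig4 was last at 1.13 CPM per kb. In the femoral KOKI pools Apex1 (29.8 ± 0.0939), Msh6 (18.3 ± 1.52) and Rif1 (13.5 ± 0.217 CPM per kb) came first without overlap, as in WT LPS. Exo1 followed at 3.52 CPM per kb, and Lig4 was last at 1.01 CPM per kb. Apex1 shares 61.7% of its exon length (877 bases) with Tmem55b on the opposite strand, and Trp53bp1 shares 15.0% of its own with Tubgcp4. The strand setting of the counting is not given in the sources used here, so levels of these pairs may be mixed.

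**Figure D1:**
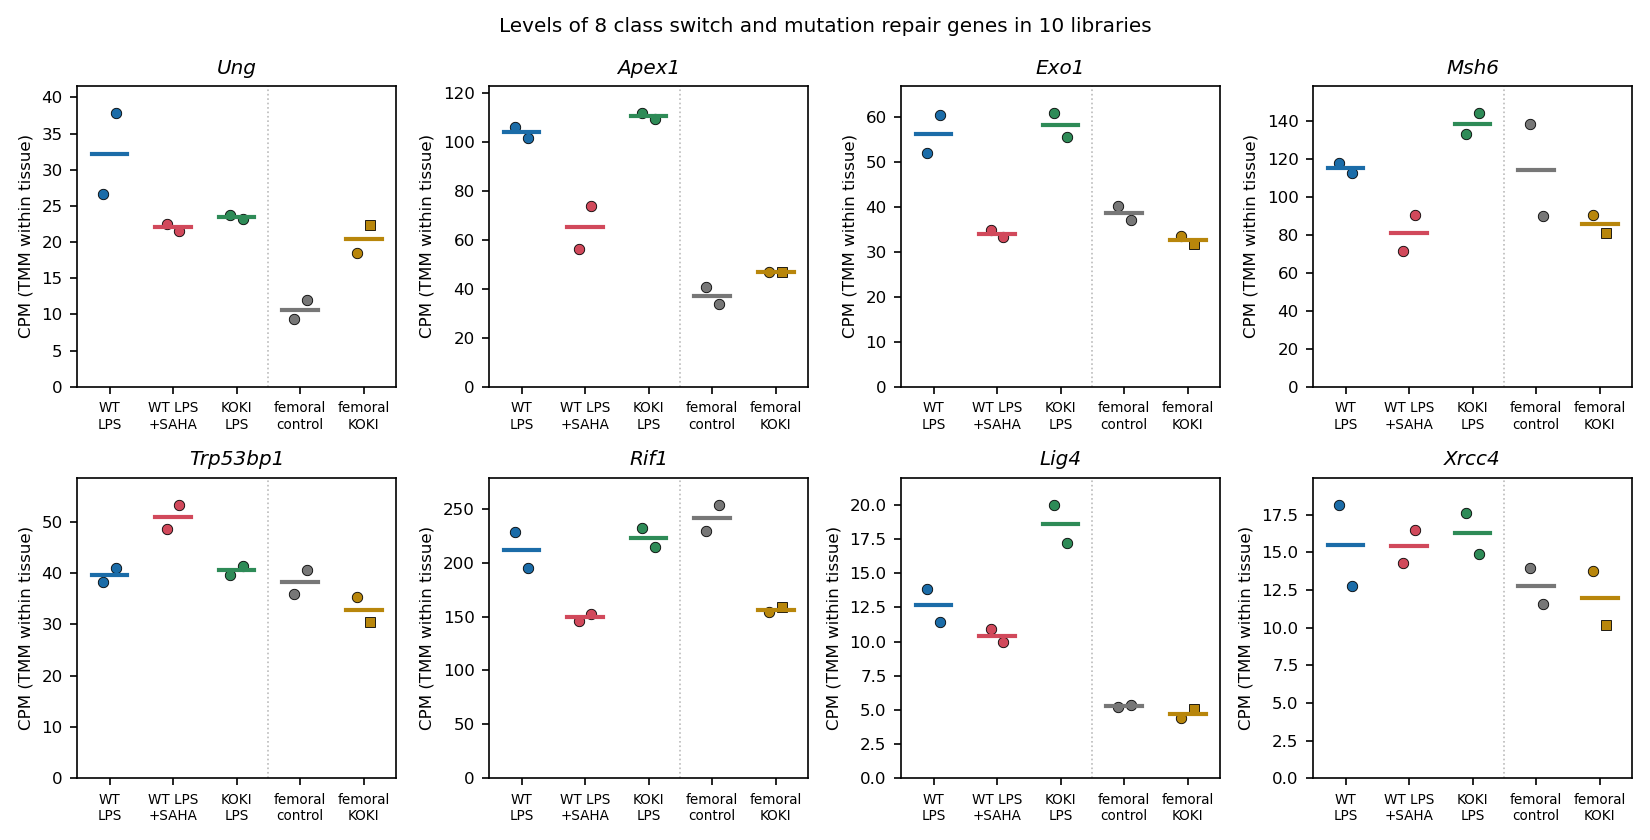
CPM of the 8 genes in each of the 10 libraries, normalised within spleen and within femur, 1 panel per gene, 1 point per library with bars at group means; the square is the KOKI pool that lacked RAG2 alone. Ung, Apex1, Exo1, Msh6, Rif1 and Lig4 were lower in both WT LPS+SAHA libraries than in both WT LPS libraries, and Trp53bp1 was higher. Ung was higher in both femoral KOKI pools than in both femoral controls. Of all genes tested, 55.9% were free of overlap in the first of these comparisons and 49.4% in the second.

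The first comparison asked what SAHA did to these genes in wild-type LPS cultures. Of the 8 genes, 2 fell, Apex1 of base excision and Exo1 of mismatch repair, to about 0.627 and 0.604 of their WT LPS level, and none rose. The background was 4.64% of the 15342 genes tested (3.69% lower and 0.952% higher), at an adjusted p under 0.05 by edgeR's quasi-likelihood test with 2 libraries against 2. Ung, Msh6 and Rif1 had log2 differences of similar sign and size without passing, and Trp53bp1 pointed the other way. In these bulk cultures, fewer cells of a type and less RNA per cell cannot be told apart.

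Apex1, the endonuclease that cuts abasic sites, was at 106 and 101 CPM in WT LPS and at 56.4 and 73.6 CPM in WT LPS+SAHA. Both treated libraries were lower, without overlap, with a log2 difference of -0.67 (SE 0.15, edgeR adjusted p = 0.0469). Its opposite-strand neighbour Tmem55b stood at 32.3 and 37.4 CPM in WT LPS and at 42.5 and 48.4 CPM in WT LPS+SAHA, so the pair went in opposite directions, the neighbour without passing (log2 0.38, edgeR adjusted p = 0.167). Ung, the glycosylase that precedes Apex1, was at 26.7 and 37.8 CPM in WT LPS and at 22.5 and 21.6 CPM in WT LPS+SAHA. The 2 WT LPS libraries were further apart for Ung than for Apex1, and the log2 difference of -0.55 (SE 0.18, edgeR adjusted p = 0.109) did not pass.

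Exo1, the exonuclease of the mismatch branch, was at 52.2 and 60.6 CPM in WT LPS and at 34.8 and 33.3 CPM in WT LPS+SAHA. The groups did not overlap, and the log2 difference of -0.73 (SE 0.13, edgeR adjusted p = 0.0328) was the largest of the 8 genes in this comparison. Msh6, which reads the mismatch, was at 118 and 113 CPM in WT LPS and at 71.6 and 90.8 CPM in WT LPS+SAHA. Both treated libraries were lower, but the log2 difference of -0.51 (SE 0.15, edgeR adjusted p = 0.0863) did not pass.

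The end protection pair split. Rif1 was at 228 and 195 CPM in WT LPS and at 146 and 152 CPM in WT LPS+SAHA, a log2 difference of -0.51 (SE 0.15, edgeR adjusted p = 0.0829). Trp53bp1, which recruits Rif1 to breaks, was at 38.3 and 40.9 CPM in WT LPS and at 48.6 and 53.3 CPM in WT LPS+SAHA, a log2 difference of 0.36 (SE 0.12, edgeR adjusted p = 0.119). Neither passed, though both pairs of groups were free of overlap, in opposite directions. Tubgcp4, which shares exon bases with Trp53bp1, had a log2 difference of -0.17 (edgeR adjusted p = 0.417).

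The ligation pair differed least. Lig4 was at 13.9 and 11.4 CPM in WT LPS and at 10.9 and 9.97 CPM in WT LPS+SAHA (log2 -0.28, 95% interval -0.69 to 0.14, edgeR adjusted p = 0.385). Xrcc4 was at 18.2 and 12.8 CPM in WT LPS and at 14.3 and 16.5 CPM in WT LPS+SAHA, which overlap (log2 -0.00, 95% interval -0.48 to 0.48, edgeR adjusted p = 0.993). In all, 6 genes were lower without overlap (background 28.4%) and 1 was higher (background 27.5%, and 55.9% in either direction), and the median log2 difference of the 8 was -0.51 against 0.02 over all genes tested.

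The titles number the wild-type cultures 1 and 2 in both conditions. With that number as a block, 4 genes fell: Apex1 (edgeR adjusted p = 0.0152), Exo1 (0.0111), Msh6 (0.0392) and Rif1 (0.0406), against 2013 of all genes. Without the block the calls were fragile. Leaving out any 1 of the 6 splenic libraries ended both calls, with edgeR adjusted p of 0.0665 to 0.199 for Apex1 and 0.0526 to 0.109 for Exo1, while their log2 differences stayed between -0.89 and -0.51 and between -0.83 and -0.64.

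**Figure D2:**
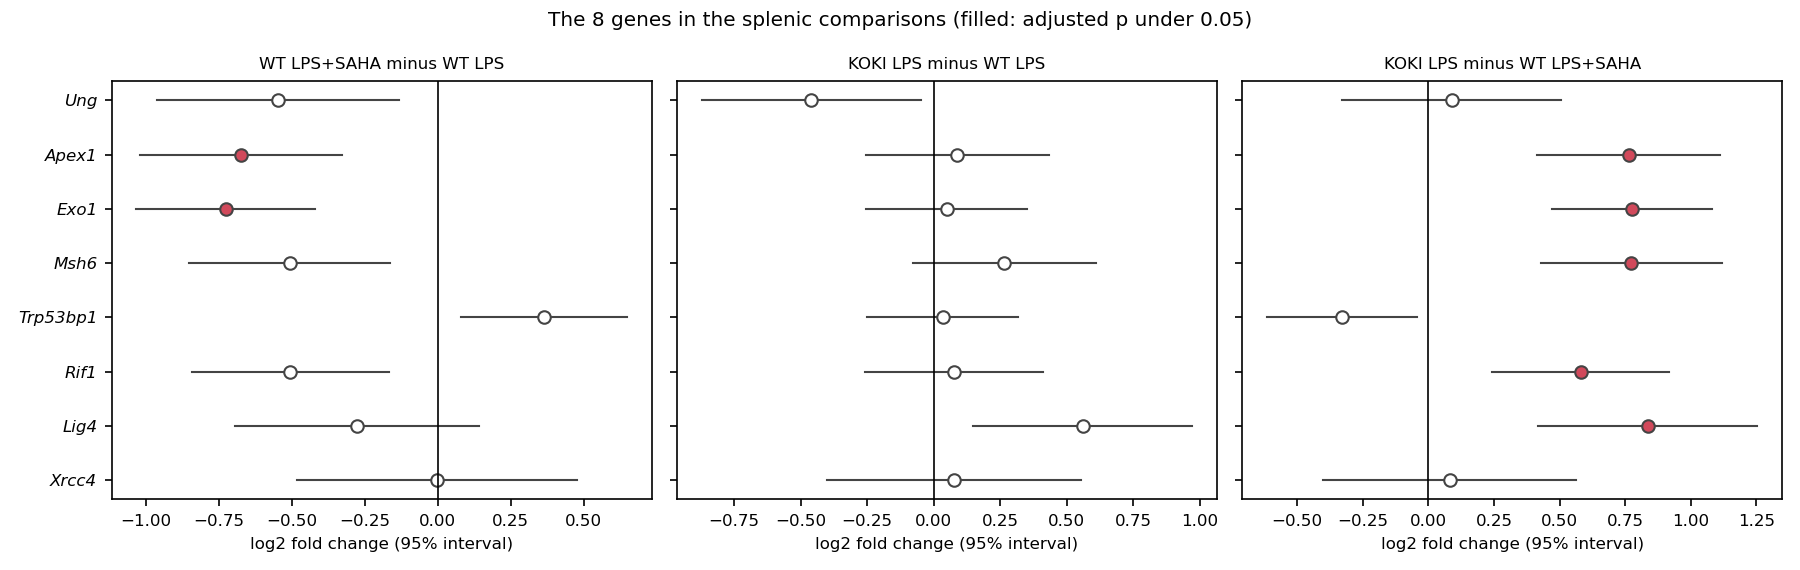
Log2 differences of the 8 genes in the 3 splenic comparisons, with 95% intervals from edgeR; filled points have an adjusted p under 0.05. Apex1 and Exo1 are filled for SAHA, none is filled for KOKI LPS against WT LPS, and 5 are filled for KOKI LPS against WT LPS+SAHA.

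Of 53 other genes of the wider pathway, in 5 lists by repair step, 2 fell with SAHA and none rose, a share near the 3.69% of all genes that were lower. Their median log2 difference was -0.31 against 0.02 over all genes, and 41 of them were negative. With the WT number as a block, 10 fell. Tdg, a thymine DNA glycosylase of base excision, was at 65.0 and 57.7 CPM in WT LPS and at 31.1 and 37.6 CPM with SAHA (log2 -0.84, edgeR adjusted p = 0.0299). Rpa2, a subunit of the single-strand binding complex, was at 97.2 and 97.1 CPM in WT LPS and at 64.2 and 63.0 CPM with SAHA (log2 -0.61, edgeR adjusted p = 0.0403). Leaving out any 1 of the 6 splenic libraries ended the call of Rpa2 (edgeR adjusted p up to 0.166), and leaving out WT LPS 1, either SAHA library or KOKI LPS 1 ended that of Tdg (up to 0.139).

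Markers of division moved in the same direction as Apex1 and Exo1. Of 25 replication and cell cycle genes, 16 fell with SAHA and none rose (median log2 -0.76, against 3.69% of all genes lower). These calls depended on the libraries in the fit: 0 fell with the 4 compared libraries alone, where the median was -0.76. Fewer fell without any 1 splenic library, a fit that leaves 1 library in a group. All 25 stayed negative in those fits, and the median was between -0.87 and -0.69. Their summed level was 4867 to 5081 CPM in WT LPS and 2552 to 3377 CPM in WT LPS+SAHA. The summed level of 6 plasmablast markers was 535 to 568 CPM in WT LPS and 359 to 442 CPM with SAHA, and that of 8 macrophage markers was 27.4 to 27.6 and 46.5 to 55.7 CPM. Their part in the differences of the 8 genes was not tested.

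**Figure D3:**
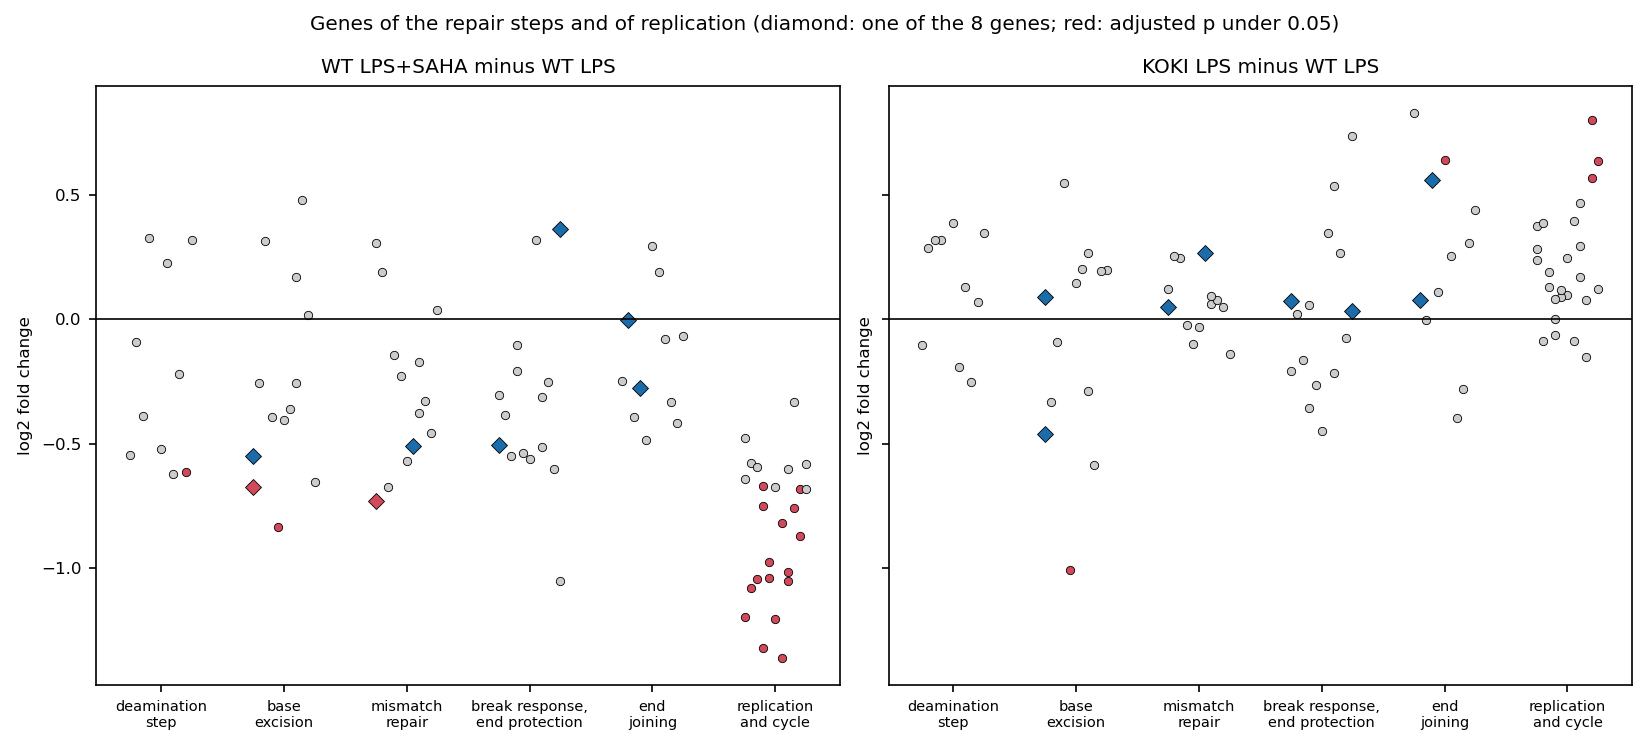
Log2 differences of the 8 genes (diamonds) and of the other genes of each repair step and of replication (dots) for WT LPS+SAHA and for KOKI LPS, each against WT LPS; red marks an adjusted p under 0.05 by edgeR, and blue diamonds and grey dots did not pass. All 25 replication genes lie below 0 for SAHA, 16 of them in red, and the lowest red dot for KOKI LPS, at -1.01, is Tdg.

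The second comparison set KOKI LPS against WT LPS, the same 2 wild-type libraries as before. No gene of the 8 passed by edgeR (background 4.08%, 2.25% higher and 1.83% lower), 2 had an unadjusted p under 0.05, and none passed by DESeq2. Ung was at 23.7 and 23.1 CPM in KOKI LPS, below both WT LPS libraries at 26.7 and 37.8 CPM (log2 -0.46, SE 0.18, edgeR adjusted p = 0.232). Lig4 was at 20.0 and 17.2 CPM, above both WT LPS libraries at 13.9 and 11.4 CPM (log2 0.56, SE 0.18, edgeR adjusted p = 0.151). These 2 differences, in opposite directions, were the largest of the 8.

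For the other 6 the intervals span 0. Apex1 was at 112 and 109 CPM in KOKI LPS and Msh6 at 133 and 144 CPM, both above WT LPS without overlap (log2 0.09, 95% interval -0.26 to 0.43, and 0.27, -0.08 to 0.61). Exo1 was at 60.9 and 55.6 CPM (log2 0.05, 95% interval -0.25 to 0.35) and Rif1 at 232 and 215 CPM (0.08, -0.26 to 0.41), overlapping WT LPS. Trp53bp1 was at 39.6 and 41.5 CPM (0.03, -0.25 to 0.32) and Xrcc4 at 17.6 and 14.9 CPM (0.08, -0.40 to 0.56), also overlapping. In all, 3 genes were higher without overlap and 1 was lower (background 23% and 24.1%, or 47.1% in either direction).

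In the wider pathway, 2 of 53 other genes passed, 1 higher and 1 lower in KOKI LPS, near the 4.08% of all genes. Prkdc, the catalytic subunit of DNA-dependent protein kinase that works with Lig4 in end joining, was at 57.3 and 57.5 CPM in WT LPS and 96.8 and 82.1 CPM in KOKI LPS (log2 0.64, edgeR adjusted p = 0.0347). Tdg was at 32.1 and 28.8 CPM in KOKI LPS and fell (log2 -1.01, edgeR adjusted p = 0.00888).

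The call of Prkdc held in 1 of 6 fits that left out a splenic library, the one without WT LPS+SAHA 1, and its edgeR adjusted p was 0.0504 to 0.204 in the other 5. For Tdg it was 0.0702 without KOKI LPS 2 and 0.0515 without WT LPS 1. The summed level of plasmablast markers was 1173 to 1305 CPM in KOKI LPS against 535 to 568 CPM in WT LPS. Of the 25 replication genes, 3 rose, among them Mki67 (log2 0.80, edgeR adjusted p = 0.0462). With immunoglobulin genes left out, or with the 4 compared libraries alone, 0 rose, while the median log2 difference stayed at 0.17. Without single libraries that median was 0.14 to 0.23. T cell markers summed to 8.60 to 9.69 CPM against 14.7 to 14.9 CPM, mostly from Lck (means of 7.55 and 11.2 CPM). None of the 7 T cell markers tested passed. The part of cells with these markers in the levels of Prkdc and Tdg was not tested.

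KOKI LPS against WT LPS+SAHA was the third splenic comparison, which also tests the difference between the 2 effects above, since they share the WT LPS libraries. Of the 8 genes, 5 were higher in KOKI LPS and passed by edgeR, and none was lower, with a background of 23.7% (14.1% higher and 9.64% lower). The genes span all 4 steps: Apex1, Exo1 and Msh6, Rif1, and Lig4. Their folds were 1.50 to 1.79. Without overlap, 6 genes were higher in KOKI LPS, these 5 and Ung, and 1 was lower, Trp53bp1 (background 32.7% and 33.1%, or 65.8% in either direction).

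Lig4, at 20.0 and 17.2 CPM in KOKI LPS and 10.9 and 9.97 CPM in WT LPS+SAHA, had the largest difference (log2 0.84, SE 0.18, edgeR adjusted p = 0.0152). Exo1 had 0.78 (SE 0.13, edgeR adjusted p = 0.00630), Msh6 0.77 (SE 0.15, 0.00984) and Apex1 0.76 (SE 0.15, 0.0107) on the log2 scale. Rif1 had 0.58 (SE 0.15, edgeR adjusted p = 0.0256). Ung (log2 0.09, 95% interval -0.33 to 0.51) and Xrcc4 (0.08, -0.40 to 0.56) did not pass, nor did Trp53bp1, which was lower in KOKI LPS (-0.33, edgeR adjusted p = 0.0894). Tmem55b, opposite Apex1, was lower in KOKI LPS (log2 -0.57, edgeR adjusted p = 0.0311).

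Exo1 alone passed in all 6 fits that each left out 1 of the splenic libraries. Without WT LPS+SAHA 1, 2 of the 5 passed, Exo1 and Lig4, and Apex1 was at an edgeR adjusted p of 0.0661, Msh6 at 0.0628 and Rif1 at 0.112. Without WT LPS+SAHA 2, the library with many olfactory receptor genes, 3 passed, Rif1 being at 0.0785 and Lig4 at 0.0695. Without KOKI LPS 1, Lig4 was at 0.0808 and Rif1 at 0.124, and without KOKI LPS 2, the Xist library, Rif1 alone was lost at 0.0751.

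Among the 53 other pathway genes, 19 rose and 1 fell, against 14.1% and 9.64% of all genes, and 8 rose without either SAHA library or either KOKI LPS library. The histone gene H2afx (log2 1.79, edgeR adjusted p = 0.0298) rests on KOKI LPS 1, at 921 CPM against 282 CPM in KOKI LPS 2, and its log2 difference was 0.72 without the former and 2.43 without the latter. Other rises were the break factor gene Aplf (1.08, 0.0242), the dynein light chain gene Dynll1, whose product binds Trp53bp1 protein (1.05, 0.0128), and the flap endonuclease gene Fen1 (0.94, 0.00447). The glycosylase gene Smug1 fell (log2 -1.07, edgeR adjusted p = 0.0357). Aplf, H2afx and Smug1 each lost the call without KOKI LPS 1, Aplf at 0.0891, H2afx at 0.130 and Smug1 at 0.0546. H2afx also lost it without WT LPS+SAHA 2 (0.0988), and Aplf and Smug1 without WT LPS+SAHA 1 (0.105 and 0.185) and without KOKI LPS 2 (0.0649 and 0.180).

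Of the 25 replication genes, 23 rose (17 to 24 without single libraries), and their summed level was 6136 to 6333 CPM in KOKI LPS against 2552 to 3377 CPM in WT LPS+SAHA. All 6 plasmablast markers were higher in KOKI LPS and passed (median log2 2.46), with sums of 1173 to 1305 CPM against 359 to 442 CPM. Of 8 B cell markers, 3 fell and none rose, and their sums were 2442 to 2646 CPM against 3149 to 3914 CPM. Of 6 macrophage markers tested, 3 fell and 1 rose, and all 8 summed to 29.5 to 31.6 CPM against 46.5 to 55.7 CPM. The part of these cells in the differences of the 8 genes was not tested.

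In the femur, the pools of KOKI mice were set against the pools of controls. None of the 8 passed by edgeR (background 0.0301% of 16624 genes), 2 had an unadjusted p under 0.05, and 2 passed by DESeq2. Ung was at 9.31 and 12.0 CPM in controls and at 18.6 and 22.4 CPM in the KOKI pools, higher in both without overlap (log2 0.94, SE 0.24, 95% interval 0.39 to 1.49, edgeR adjusted p = 0.151). Rif1 was at 229.6 and 254 CPM in controls and at 154 and 159 CPM in the KOKI pools, lower in both (log2 -0.63, SE 0.20, 95% interval -1.08 to -0.18, edgeR adjusted p = 0.194). By DESeq2 the adjusted p was 0.0408 for Ung and 0.0402 for Rif1.

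Msh6 was at 138 and 90.2 CPM in controls and at 90.5 and 81.3 CPM in the KOKI pools, and the groups overlapped. Apex1 was at 40.6 and 33.6 CPM in controls and at 46.6 and 46.9 CPM in the KOKI pools (log2 0.33, edgeR adjusted p = 0.407). Exo1 was at 40.2 and 37.1 CPM in controls and at 33.6 and 31.8 CPM in the KOKI pools (log2 -0.25, edgeR adjusted p = 0.524). Trp53bp1, Lig4 and Xrcc4 had log2 differences of -0.22, -0.16 and -0.10. Of the 8, 2 were higher without overlap and 4 lower (background 25.4% and 24%, or 49.4% in either direction). The controls differed most between themselves for Msh6, whose log2 difference ran from -0.69 to -0.07 over 10 alternative settings. Over the same settings Ung ran from 0.77 to 1.14 and Rif1 from -0.69 to -0.55. A fit without 1 control leaves 1 library in that group, so calls in such fits say little about the 8 genes.

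None of 53 other pathway genes and none of 25 replication genes passed in the femur by edgeR; 1 of each list passed by DESeq2. The replication genes had a median log2 difference of -0.07, with 15 of 25 negative. Their sum was 6896 to 9445 CPM in controls and 4862 to 5509.8 CPM in the KOKI pools, of which Mki67 alone made up 4007 and 2402.5 CPM in controls and 1447 and 1099.6 CPM in the KOKI pools. 1 KOKI pool lacked RAG2 alone, so gamma c and the pool cannot be told apart, and a comparison of 1 pool with 1 pool has no replicates.

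**Figure D4:**
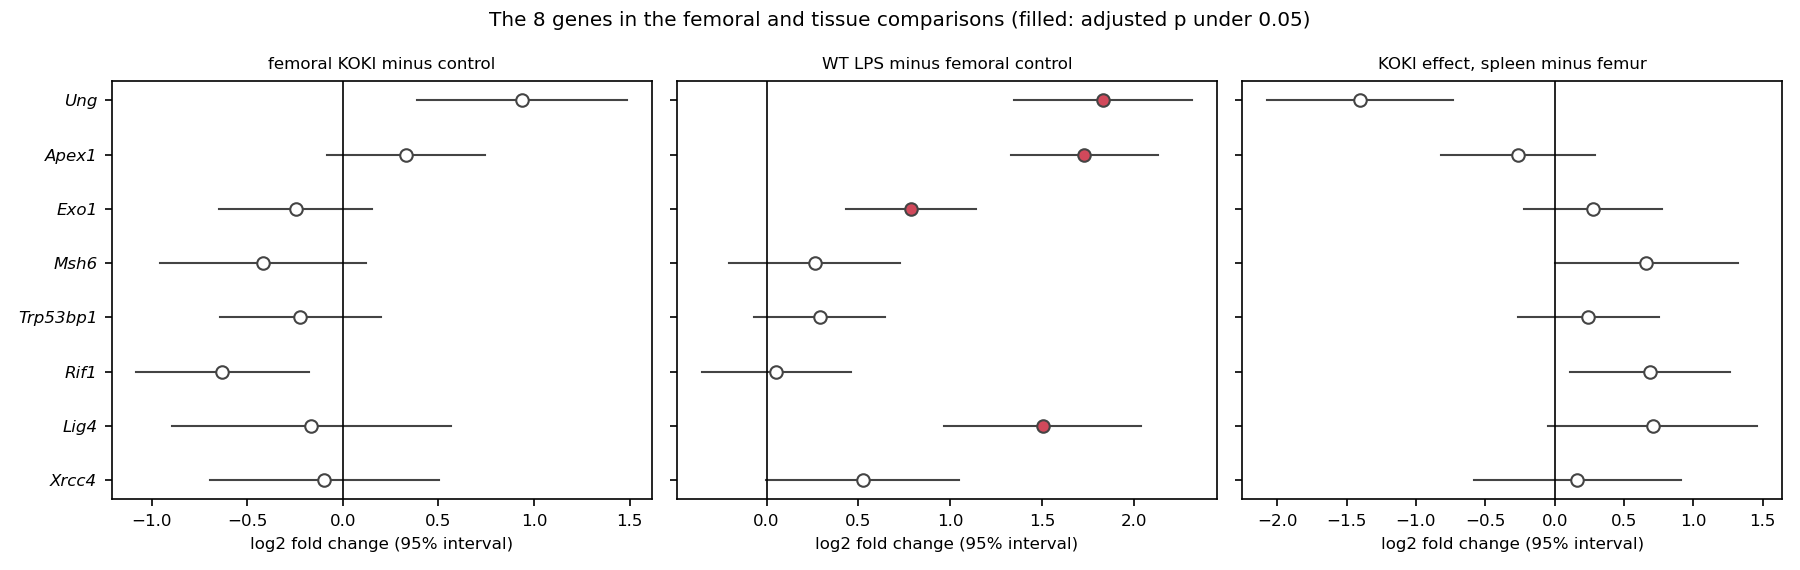
Log2 differences of the 8 genes, with 95% intervals from edgeR, for femoral KOKI against femoral control, for WT LPS against femoral control and for the KOKI difference in spleen minus that in femur; filled points have an adjusted p under 0.05. Filled points are Ung, Apex1, Exo1 and Lig4 in WT LPS against femoral control only.

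The KOKI differences of Ung pointed in opposite directions in the 2 preparations. Its log2 difference was -0.46 in splenic cultures and 0.94 in femurs, and the test of that difference gave -1.41 (SE 0.31, 95% interval -2.08 to -0.74, edgeR adjusted p = 0.0621), which did not pass. Lig4 had 0.56 in spleen and -0.16 in femur, with a difference of 0.71 (SE 0.34, edgeR adjusted p = 0.411). Rif1 (0.69, edgeR adjusted p = 0.291) and Msh6 (0.66, 0.378) followed. None of the 8 passed by edgeR (background 0.846%, 0.416% above 0 and 0.431% below), 3 had an unadjusted p under 0.05, and 1, Ung, passed by DESeq2 (adjusted p = 0.0196). Without femoral control 2 Ung passed by edgeR as well (0.0295), and without any other single library it did not (0.0681 to 0.239), with log2 values of -1.66 to -1.15.

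WT LPS against femoral control compared an LPS culture of mature B cells with uncultured femoral cells of mice lacking RAG2 and gamma c, so tissue, genotype, culture and LPS differ together and cannot be told apart. Of the 8 genes, 4 rose: Ung (3.57-fold, log2 1.83, edgeR adjusted p = 4.11e-05), Apex1 (3.32-fold, log2 1.73, 1.42e-05), Lig4 (2.83-fold, log2 1.50, 0.000428) and Exo1 (1.73-fold, log2 0.79, 0.00208). The background was 42.4% of 20204 genes, 21.1% higher and 21.3% lower. Msh6 (log2 0.26, 95% interval -0.20 to 0.73), Trp53bp1 (0.29, -0.07 to 0.65), Xrcc4 (0.52, -0.00 to 1.05) and Rif1 (0.05, -0.35 to 0.46) did not pass. Msh6 passed without femoral control 1 (log2 0.58, edgeR adjusted p = 0.0379) and Xrcc4 without WT LPS 2 (0.77, 0.0486). Under DESeq2's size factors the median of all genes shifted by -0.16 and Rif1 had a log2 difference of -0.10.

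Of the 53 other pathway genes, 19 rose and 3 fell, and with DESeq2's size factors 13 rose and 7 fell. Without WT LPS 1, 10 rose, and without femoral control 2, 12 did. Xrcc5, a subunit of the Ku heterodimer that holds broken ends for Lig4 and Xrcc4, rose (log2 2.43, edgeR adjusted p = 1.41e-06), as did the polymerase gene Polm (1.74, 0.000231), Mad2l2 (1.59, 0.000398) and Rpa3 (1.52, 0.00148). Mdc1, a break response adaptor, fell (log2 -1.30, edgeR adjusted p = 4.7e-05), as did Aplf (-0.98, 0.0134) and Prkdc (-0.66, 0.0210). Aplf lost the call without WT LPS 2 (edgeR adjusted p = 0.105) or femoral control 1 (0.0582), and Prkdc without either WT LPS library (0.0552 and 0.0950) or femoral control 2 (0.0579). Neutrophil, erythroid and macrophage markers, high in femurs, differed with all of these genes, and their part was not tested.

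Over all 10 libraries, the nearest of the 20204 genes to each of the 8 was found by the root mean square difference of log2 CPM, centred on each gene's own mean. Rif1 had the closest neighbours of the 8, among them Kif5b at 0.0733. Trp53bp1 lay closest to Rufy3 (0.0823) and Mbd4 (0.0946), and Exo1 to Ipo11 (0.0855) and Ipo5 (0.0999). Msh6 lay closest to Arcn1 (0.103) and Srp72 (0.105), and Apex1 to Adsl (0.108) and Wdr75 (0.109). Xrcc4 lay closest to Zfp85 (0.115) and Plgrkt (0.126), Ung to Gm10131 (0.148) and Fitm2 (0.155), and Lig4 to Pde3b (0.159) and Manea (0.172). Lig4 and Ung had the most distant neighbours of the 8.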

How the data were processed

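Per the labels' protocols, total RNA came from the miRNeasy kit and 500 ng of it went into TruSeq Stranded Total RNA libraries. The authors deposited 1 table of raw counts per gene. The submitters' processing notes name STAR 2.4.0a, featureCounts and Subread 1.4.6-p1, and the build mm10 (GRCm38). Not given in the sources used here are the strand setting, the annotation and the handling of reads that match several places. Of the table, 100 spike-in and phiX entries (1 to 17 counts per library) were left out.

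Tests were quasi-likelihood fits of edgeR 4.0.16 (R 4.3.3) after TMM scaling and filterByExpr (minimum count 10, minimum total 15), with Benjamini-Hochberg adjustment over all genes tested and a threshold of 0.05. Splenic comparisons shared 1 fit of 6 libraries, the femoral one used 4, and comparisons across tissues used 10. DESeq2 1.42.0 was an alternative. Counts of the pathway and replication lists without single libraries were added after seeing the data. CPM were scaled within spleen or femur; levels per kb used TMM over all 10 libraries, and marker sums used none. Fits were tested on simulated counts with the same fixed spread for every gene. That setting cannot show how the fits treat a library that stands apart. Pairs of libraries differed by a chi-square per degree of freedom of 44.1 to 161, so none were copies. The main fits used group only, without pairing. Wild-type cultures with the same number in their titles were taken as pairs only where a block is named. Deviations of the genes of these cultures correlated at 0.496 across 12590 genes. Beyond these numbers no label says that replicates are separate animals, and p-values reflect spread between libraries that may be technical. Reads carry no molecular identifiers.

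The 8 genes, the lists and the comparisons were chosen with earlier results of these data known. Named genes are the 8, pathway genes past the threshold (at most 5 each way) and the 2 nearest genes by likeness. Of the listed genes, 3 (Shld1, Shld3 and Paxx) had no match by name, and some genes covered by these rules are not reported here and are not counted in the pathway lists. Levels were planned in TPM and are given as CPM per kb.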

Additional observations from a re-analysis of the deposited data

Results flagged for a closer look

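Ung was lower in both KOKI LPS libraries than in both WT LPS libraries and higher in both femoral KOKI pools than in both femoral controls. The difference between the 2 KOKI differences was -1.41 on the log2 scale (edgeR adjusted p = 0.0621) and did not pass. Lig4 was higher in both KOKI LPS libraries and lower in both femoral KOKI pools (femoral log2 -0.16, 95% interval -0.89 to 0.57). The difference between its 2 KOKI differences was 0.71 on the log2 scale (edgeR adjusted p = 0.411), which did not pass either. Of all genes tested, 47.1% were free of overlap in the splenic KOKI comparison and 49.4% in the femoral one.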

How the results depend on the processing

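Of 560 values of the 8 genes under alternatives, 489 kept their direction and their side of the threshold, 26 lost a call, 20 gained one and 25 changed sign. Counts of all genes and of the 8 for WT LPS against femoral control stayed within 1.5 times, and none of these 2 kinds of count changed by more without immunoglobulin genes. Counts of the lists moved by more. In WT LPS against femoral control, 7 pathway genes fell with DESeq2's size factors rather than 3. Without immunoglobulin genes, 0 replication genes rose in KOKI LPS against WT LPS rather than 3. For SAHA, genes of the 8 past the threshold numbered 1 with DESeq2's size factors, 4 by DESeq2's Wald test, 4 with no filter, 4 with the replicate block, 0 with the 4 compared libraries alone, 0 with all 10 and 0 without any single library; over all genes the counts were 1704 by the Wald test, 1970 with no filter, 2013 with the block, 0 and 211 with 4 and 10 libraries, and 0 to 290 without single libraries. For KOKI LPS against WT LPS, all genes numbered 1088, 1254 and 1144 by the Wald test, with no filter and with a replicate block, and 270 to 708 without single libraries. The KOKI cultures share only a number with the wild-type ones (correlations of deviations 0.148 and 0.183); with that block none of the 8 passed against WT LPS, and 6 did against WT LPS+SAHA. That last comparison gave 2 to 5 of the 8 and 1703 to 3463 of all genes without single libraries. In the femur, all genes numbered 0 with DESeq2's size factors, 677 by the Wald test, 662 with no filter, 0 with all 10 libraries, 0 with only the KOKI pool lacking RAG2 and gamma c, and 13 to 3456 without single pools; of the 8 these were 2 by the Wald test, 1 with no filter and 0 to 3. The difference of KOKI differences gave 550 by the Wald test, 950 with no filter and 45 to 566 without single libraries, and of the 8 it gave 1, 1 and 0 to 1.

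The 25 changes of sign were in the log2 differences of Xrcc4, Trp53bp1, Exo1, Rif1 and Msh6, none of which passed where its sign changed. Xrcc4 for SAHA was 0.018 with DESeq2's size factors, 0.018 by the Wald test, 0.014 with the block and -0.26 to 0.27 without single libraries. For KOKI LPS against WT LPS, Trp53bp1 was -0.0035 with no filter, and without single libraries Exo1 was -0.052 to 0.16, Trp53bp1 -0.010 to 0.082, Xrcc4 -0.16 to 0.35 and Rif1 -0.034 to 0.20. Xrcc4 was -0.024 to 0.23 for KOKI LPS against WT LPS+SAHA, -0.32 to 0.12 in the femur (0.11 with only the pool lacking RAG2 and gamma c) and -0.082 to 0.43 for the difference. For WT LPS against femoral control, Rif1 was -0.10 with DESeq2's size factors and by the Wald test, -0.024 with 4 libraries and -0.15 to 0.18 without single libraries, and Msh6 was -0.12 to 0.58. The cause was not tested. With 2 libraries a group, small differences were not detectable.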
